A study of Homo sapiens with 9 samples.

Results

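The urokinase receptor system was followed here through 10 genes: the receptor uPAR (PLAUR), the plasminogen activators PLAU and PLAT, the serpins SERPINE2 and SERPINB5, the plasminogen-binding pair ANXA2 and S100A10, and the metalloproteinase inhibitors TIMP1, TIMP2 and TIMP3. They were picked by symbol from a table of 60591 gene symbols, and all 10 were found there. The rule held no measured value, but the genes were chosen with earlier results of these data known. Messenger RNA was sequenced from undifferentiated Caco-2 cells (uCaco-2), an established line from a human colon adenocarcinoma, after 24 h of exposure. One group received 300 μM CoCl2, another 5 μM of the oxyquinoline derivative 4896-3212 (OD), and the control group fresh medium alone. All groups, controls included, carried 0.5% DMSO, and each had 3 biological replicates. Cobalt ions and OD are both used as chemical activators of the HIF pathway, the response by which cells adapt to low oxygen. All libraries came from 1 cell line, so the spread between them is that between cultures of this line.

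Urokinase (uPA, from PLAU) is a secreted serine protease that binds its receptor uPAR at the cell surface and cuts plasminogen into plasmin, which degrades fibrin and matrix and can activate matrix metalloproteinases. Serpins trap activators and plasmin, annexin A2 with S100A10 holds plasminogen at the membrane, and the TIMPs block metalloproteinases. In colon carcinoma these proteins are known for their part in invasion and in remodelling of the matrix.

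Total counts were 15998136 to 18298190 per control library, 16286502 to 24209427 with CoCl2 and 16387054 to 19623776 with OD. The 50 most abundant genes took 21.7 to 22.3% of counts with CoCl2, against 15.7 to 16.1% in controls and 16.1 to 16.2% with OD. The TMM factors, a correction for differences in library composition, were 0.770 to 0.795 with CoCl2, against 1.11 to 1.12 in controls and 1.14 to 1.15 with OD. The label was checked against 9 markers of intestinal epithelium: 8 were tested, and CDX1 had no count in any library. EPCAM, CDH1, KRT8, KRT18, CDX2 and CDH17 were not called in either treatment, while VIL1 was called lower with CoCl2, from 613 to 112 CPM, as was KRT20, from 4.49 to 1.74 CPM. The summed level, most of it from KRT8 and KRT18, was 10390 to 10843 CPM (counts per 1000000, after TMM scaling) in controls, 12388 to 13274 with CoCl2 and 9922 to 10453 with OD. Of the 6 fibroblast markers, COL1A2 and DCN had at most 1 and 2 counts in a library, but COL1A1 (14.4 CPM in controls), COL3A1 (5.14) and PDGFRB (4.79) were detected. With CoCl2, PDGFRB was called lower (log2 fold change -2.31), and COL3A1 was at 0.69 and COL1A1 at -0.49. LUM was called higher with OD (log2 fold change 1.78), from 4 to 8 reads per control library to 17 to 32. It passed the count filter only through the OD libraries. The summed fibroblast level was 22.9 to 26.8 CPM in controls, 18.4 to 20.8 with CoCl2 and 32.0 to 33.4 with OD. The 4 endothelial markers summed to 2.36 to 3.50 CPM over all libraries. Of these, VWF was called higher with CoCl2 (log2 fold change 1.61), PECAM1 was at -0.80, and CDH5 and KDR were not tested. The 5 leukocyte markers summed to 4.94 to 6.08 CPM in controls, 5.82 to 5.91 with CoCl2 and 2.98 to 3.46 with OD, where CD14 was called lower (log2 fold change -1.08). The part of these marker shifts in the results was not tested.

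PLAUR was among the genes with the largest increases under both activators. Its level in control libraries was 1.61, 2.45 and 2.41 CPM, from 30 to 50 reads per library. With CoCl2 it was 15.4, 16.6 and 14.8 CPM, and with OD 13.1, 11.7 and 13.3 CPM. The 3 groups did not overlap, and every treated library lay above every control. The log2 fold change was 2.84 ± 0.13 (SE, n = 3 against 3) with CoCl2, a 7.15-fold increase (edgeR's quasi-likelihood test, Benjamini-Hochberg adjusted p = 1.16e-29). With OD it was 2.55 ± 0.13, a 5.84-fold increase (edgeR, adjusted p = 1.98e-26). Of the 15944 genes tested, 464 had a higher log2 fold change than PLAUR with CoCl2 and 166 with OD. In bulk RNA, a change in the share of cells that express a gene and a change in RNA per cell cannot be told apart.

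**Figure D1:**
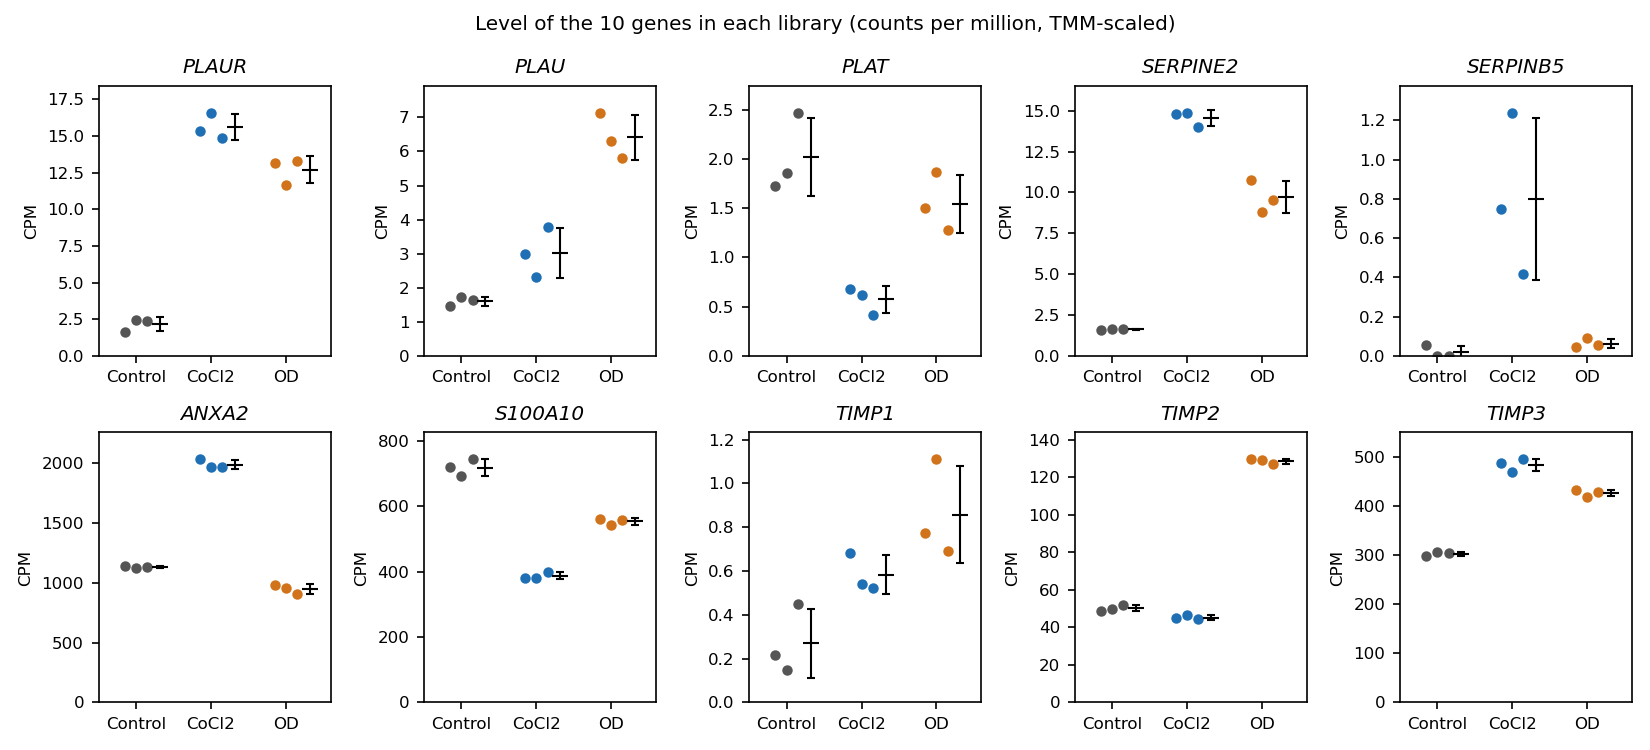
Level of each of the 10 genes in the 9 libraries, in TMM-scaled CPM on linear axes from 0. Coloured points are libraries (3 per group) and black bars the group mean with its SD. PLAUR and SERPINE2 stood higher in all 6 treated libraries than in any control, PLAU and TIMP2 were highest with OD, and PLAT was lowest with CoCl2.

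PLAUR lies at chr19:43646095-43670547 on the minus strand (GRCh38, GENCODE). RefSeq sequences of 250 bases before the annotated starts (GRCh38.p14) were searched on both strands for ACGTG and GCGTG, the core letters bound by HIF, and for TGANTCA. In TGANTCA any base may stand at N, so it is wider than the AP-1 site, which has C or G there. An upstream sequence was matched for 8 of the 10 genes, with 10 start sites in all; PLAT and TIMP2 were not analysed for it. The stretches below show the matches before the starts of the 3 genes whose levels rose most with OD, in capitals with 11 bases on each side, 5′ to 3′ on the gene's strand. GCGTG on the opposite strand reads CACGC here, and CACGTG holds ACGTG on both strands.
PLAUR, chr19:43670338-43670366, minus strand: tcacaactccaTGAGTCAgggccgagcca
PLAUR, chr19:43670240-43670266, minus strand: ggggaggcgccCACGCatctggggctg
SERPINE2, first start, chr2:224031549-224031576, minus strand: tgatgctaggtCACGTGgtcacatgccc
SERPINE2, second start, chr2:224038757-224038783, minus strand: caccggggccgGCGTGgctcctgcccg
PLAU, second start, chr10:73911008-73911034, plus strand: cgttgcggaagCACGCggggtccgggt
The match before PLAUR lay 186 to 180 bases before the start for TGANTCA and 86 to 82 for GCGTG. GENCODE 44 also holds a longer PLAUR transcript whose first exon covers both stretches, and a longer SERPINE2 transcript whose first exon covers the stretch before the second start. In GENCODE 44 the PLAU gene begins at chr10:73909177, so the stretch before its second start lies inside the annotated gene. Starts are numbered by rising coordinate, so on the minus strand the first SERPINE2 start lies inside the gene, downstream of the second. Before the first SERPINE2 start, CACGTG lay at 87 to 82 bases, and before the second start GCGTG lay at 132 to 128. The first PLAU start held none of these letters in its 250 bases, and the second held GCGTG at 113 to 109. Over the 10 start sites, 9 held ACGTG or GCGTG and 3 held TGANTCA, which before SERPINB5 read TGAATCA and so was not the AP-1 site. Among 35116 promoters of the same length, 43.2% held ACGTG or GCGTG and 6.57% held TGANTCA. These matches describe the letters only, since binding was not measured.

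Over all tested genes, requiring an adjusted p under 0.05 together with more than 1 log2 unit of change called 43.2% of genes with CoCl2, 19.9% higher and 23.4% lower. SERPINB5 had too few reads to be tested, which left 9 of the 10 genes. With CoCl2, 4 of these 9 were called: PLAUR, SERPINE2 and TIMP1 higher, and PLAT lower. That share is near the one over all genes. The median log2 fold change of the 9 genes was 0.81, against -0.049 over all genes. All 9 had an adjusted p under 0.05 and TMM-scaled levels that did not overlap with control, which held for 83.2% and 83.4% of all genes.

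With OD, 13.3% of all genes were called, 9.09% higher and 4.16% lower. The called members were 5 of 9, all of them higher: PLAUR, SERPINE2, PLAU, TIMP1 and TIMP2. The median of the 9 genes was 1.36, against -0.010 over all genes. TIMP1 passed the count filter only through the OD libraries, in which it was highest, so its place in this count was favoured by the filter. Without TIMP1, 4 of 8 members were called higher with OD, with a median of 0.93, and with CoCl2 2 were called higher and 1 lower. By adjusted p alone 8 of 9 passed, and 8 of 9 had libraries that did not overlap with control, against 65.6% and 68% of all genes. The exception in both counts was PLAT. Both comparisons use the same control libraries, so they are not independent of each other.

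**Figure D2:**
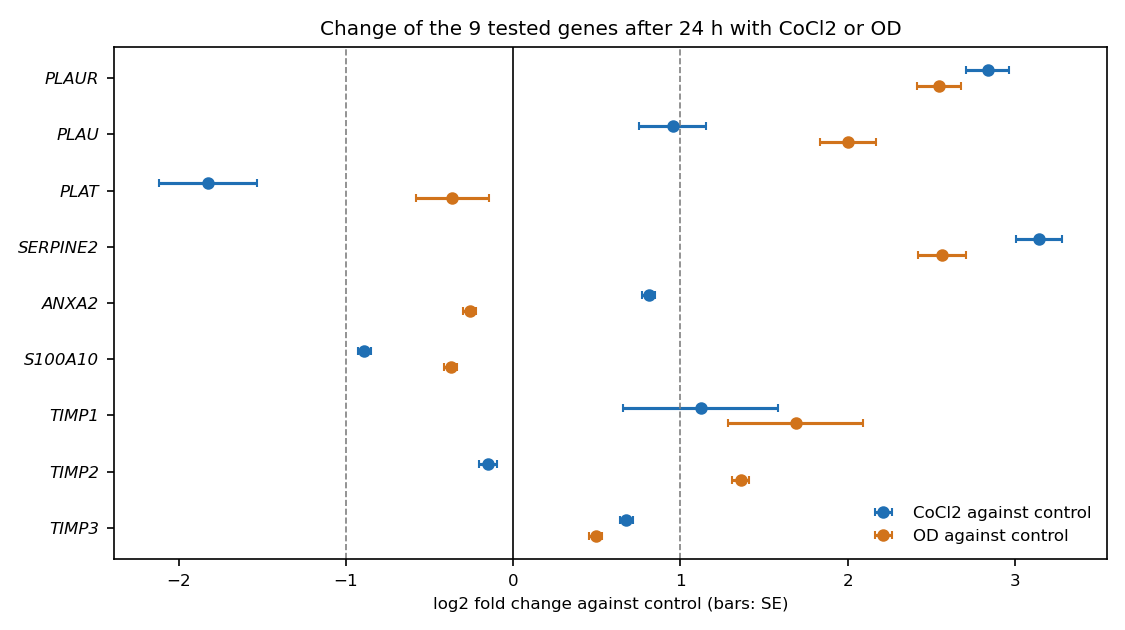
Log2 fold change against control, with its SE, of the 9 genes that could be tested, for CoCl2 (blue) and OD (orange). Dashed lines mark a log2 fold change of 1 in either direction. PLAUR and SERPINE2 lie above 2 with both agents, PLAT lies at -1.82 with CoCl2, and TIMP2 is at -0.15 with CoCl2 and 1.36 with OD.

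PLAU, the gene of urokinase itself, increased most with OD. It lies at chr10:73909177-73917496 on the plus strand. Its level was 1.45, 1.72 and 1.63 CPM in controls, 2.99, 2.32 and 3.78 with CoCl2, and 7.13, 6.30 and 5.80 with OD. The groups did not overlap in TMM-scaled CPM, but the 3 CoCl2 libraries, at 30 to 72 reads, were spread more widely than the controls. By library size alone, CoCl2 replicate 2 (1.84 CPM) lay under Control replicate 2 (1.91 CPM). OD gave a log2 fold change of 2.00 ± 0.17 (SE; edgeR, adjusted p = 6.75e-17). With CoCl2 it was 0.95 ± 0.20 (edgeR, adjusted p = 2.01e-05), just under the threshold on size. It would have been called without Control replicate 2 (1.01), without CoCl2 replicate 2 (1.09) and with DESeq2's size factors in the edgeR fit (1.00). In the other direction it was 0.75 without CoCl2 replicate 3, 0.85 with upper-quartile factors and 0.45 with library size alone (edgeR, adjusted p = 0.0372). In the direct comparison PLAU was lower with CoCl2 than with OD by a log2 fold change of -1.05 ± 0.15 (edgeR, adjusted p = 4.04e-09). This call was lost without CoCl2 replicate 2 (-0.91) and without OD replicate 1 (-0.97). Of the exonic bases of PLAU, 31% lie under the antisense long noncoding RNA C10orf55. That gene held 0 to 3 counts per library. How the authors' counting used strand is not given in the sources used here.

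Receptor and ligand stood in a different proportion in each group. The ratio of PLAU to PLAUR counts within a library, with 0.5 added to each, was 0.678 to 0.902 in controls. It was 0.142 to 0.256 with CoCl2 and 0.437 to 0.544 with OD, with no overlap between the groups. On the log2 scale the mean was -0.41 ± 0.22 (SD, n = 3) in controls, -2.38 ± 0.42 with CoCl2 and -0.99 ± 0.18 with OD. The difference from control was -1.97 with CoCl2 and -0.58 with OD. Each had p = 0.1 in a two-sided exact permutation test, the smallest value that 3 against 3 libraries allow. The difference between CoCl2 and OD was -1.39 (p = 0.1, exact permutation test). A ratio within a library does not depend on the scaling between libraries.

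PLAT encodes tissue plasminogen activator, the activator known for dissolving fibrin, and lies on chromosome 8. It was the 1 member that was called lower with CoCl2. Its level was 1.72, 1.86 and 2.47 CPM in controls and 0.684, 0.619 and 0.420 with CoCl2, from only 8 to 11 reads per CoCl2 library. With OD it was 1.499, 1.86 and 1.28 CPM, which overlapped the controls. The log2 fold change with CoCl2 was -1.82 ± 0.29 (SE; edgeR, adjusted p = 8.25e-08). With OD it was -0.36 ± 0.22 (edgeR, adjusted p = 0.138), with a 95% interval from -0.79 to 0.06. Against OD, the level with CoCl2 was lower by a log2 fold change of -1.46 ± 0.30 (edgeR, adjusted p = 1.51e-05). Hence in CoCl2-treated cells PLAUR was higher and PLAT lower than in control, while PLAU remained under the threshold on size.

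SERPINE2 encodes protease nexin-1, a serpin that inhibits thrombin, urokinase and plasmin, and lies at chr2:223975045-224039318 on the minus strand. Control libraries were at 1.61, 1.67 and 1.63 CPM, CoCl2 libraries at 14.8, 14.9 and 14.0, and OD libraries at 10.8, 8.83 and 9.53. The groups did not overlap. The log2 fold change was 3.14 ± 0.14 (SE) with CoCl2, an 8.84-fold increase (edgeR, adjusted p = 8.31e-31). With OD it was 2.56 ± 0.14, a 5.91-fold increase (edgeR, adjusted p = 1.23e-24). Higher log2 fold changes were found for 360 genes with CoCl2 and for 161 with OD.

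SERPINB5 encodes maspin, an epithelial member of the serpin family that is regarded as non-inhibitory, and lies at chr18:63476958-63505085. It was nearly absent outside the CoCl2 group. The controls held 1, 0 and 0 reads and the OD libraries 1, 2 and 1. The CoCl2 libraries held 12, 16 and 8 reads, or 0.747, 1.24 and 0.420 CPM, all above the other 6 libraries. Summed over libraries, 36 reads with CoCl2 against 1 in control gave a ratio of 42.5, with an exact 95% interval from 7.16 to 1727. Against the 4 reads with OD the ratio was 11.9 (4.25 to 45.9). Between OD and control it was 3.59 (0.355 to 177), so no difference was detectable at this depth. These intervals cover counting error only. In the edgeR fit without a count filter SERPINB5 was called higher with CoCl2 (log2 fold change 4.92, adjusted p = 6.24e-09), and DESeq2 on all 9 libraries gave 5.40 (adjusted p = 0.000175). Neither called it with OD (edgeR, adjusted p = 0.50; DESeq2, adjusted p = 0.384).

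ANXA2 and S100A10 are subunits of 1 complex at the plasma membrane, in which S100A10 is the part that binds plasminogen. They moved in opposite directions with CoCl2. ANXA2, at chr15:60347134-60402883, was at 1145, 1125 and 1134 CPM in controls, 2033, 1968 and 1968 with CoCl2, and 984, 958 and 903 with OD. S100A10, at chr1:151982915-151993859, was at 718, 691 and 743 CPM in controls, 380, 381 and 399.5 with CoCl2, and 562, 543 and 556.5 with OD. For neither gene did any of the groups overlap.

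For ANXA2 the change on the log2 scale was 0.81 ± 0.04 (SE; edgeR, adjusted p = 1.77e-28) with CoCl2 and -0.26 ± 0.04 (edgeR, adjusted p = 3.8e-08) with OD. For S100A10 it was -0.89 ± 0.04 (edgeR, adjusted p = 3.06e-30) with CoCl2 and -0.37 ± 0.04 (edgeR, adjusted p = 5.08e-13) with OD. None of these 4 changes passed the threshold on size. With library size alone, ANXA2 was at 0.30 and S100A10 at -1.40 with CoCl2, the latter then past it. The direct comparison of CoCl2 with OD did so for ANXA2, at 1.07 ± 0.04 (edgeR, adjusted p = 1.21e-34), and gave -0.52 ± 0.04 for S100A10 (edgeR, adjusted p = 9.91e-19). With upper-quartile factors the ANXA2 difference was 0.94 and with library size alone 0.52, both under the threshold.

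The ratio of ANXA2 to S100A10 counts was 1.53 to 1.63 in controls, 4.93 to 5.34 with CoCl2 and 1.62 to 1.76 with OD. The log2 ratio in CoCl2 libraries was 1.70 above control and 1.59 above OD, each with p = 0.1 in the two-sided exact permutation test, the smallest possible. Between OD and control it differed by 0.11 (p = 0.2, exact permutation test). The near-identical processed copy ANXA2P2 was listed with 185 to 416 counts per library, and reads may have been split between it and ANXA2. Fitted the same way, its change was 0.82 under CoCl2 and -0.26 under OD on the log2 scale, and its values are uncertain for the same reason. With the counts of ANXA2P1, ANXA2P2 and ANXA2P3 added to those of ANXA2, the change of ANXA2 was 0.81 with CoCl2 and -0.26 with OD. Multimapped reads that may have been left uncounted are not covered by this sum.

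**Figure D3:**
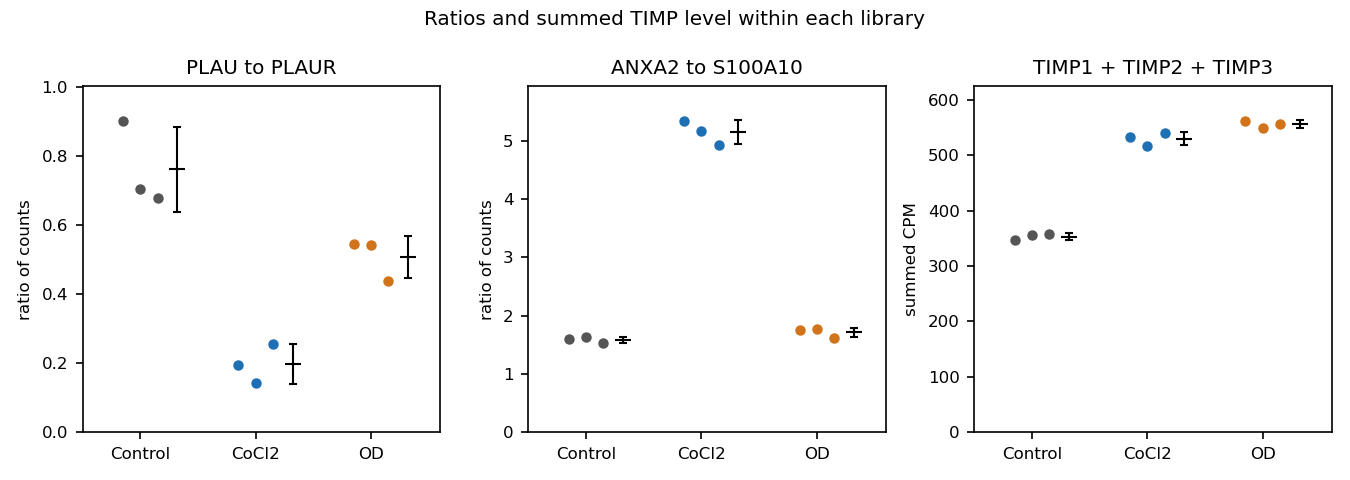
Ratio of PLAU to PLAUR counts, ratio of ANXA2 to S100A10 counts, and summed CPM of TIMP1, TIMP2 and TIMP3 in each of the 9 libraries, on linear axes from 0. Points are libraries and black bars the group mean with its SD. The PLAU to PLAUR ratio is lowest with CoCl2 (0.142 to 0.256), the ANXA2 to S100A10 ratio highest with CoCl2 (4.93 to 5.34), and the summed TIMP level higher in all treated libraries than in controls.

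TIMP2, at chr17:78852977-78925387, inhibits MMP2 and also takes part in its activation by MMP14. It was at 48.7, 49.8 and 51.8 CPM in controls, 44.7, 46.5 and 44.3 with CoCl2, and 129, 129 and 127 with OD. The OD libraries were far above the other 6. OD raised it by 1.36 ± 0.05 on the log2 scale (SE; edgeR, adjusted p = 4.75e-34), and the CoCl2 value was -0.15 ± 0.06 (edgeR, adjusted p = 0.0104). Between CoCl2 and OD it was -1.51 ± 0.05 (edgeR, adjusted p = 1.17e-36). Of the exonic bases of TIMP2, 3.61% are shared with CEP295NL on the same strand, which held 7 to 28 counts per library.

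TIMP3, at chr22:32801705-32863041, binds the extracellular matrix and also inhibits ADAM proteases. It was at 297, 306 and 305 CPM in controls, 487, 470 and 495 with CoCl2, and 432, 419 and 429 with OD. Every treated library was above every control, and the CoCl2 libraries were above those with OD. The log2 fold change was 0.68 ± 0.04 (SE; edgeR, adjusted p = 1.84e-24) with CoCl2 and 0.49 ± 0.04 (edgeR, adjusted p = 1.12e-17) with OD, both under the threshold on size. With library size alone the CoCl2 value was 0.17.

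TIMP1, at chrX:47582408-47586789, is an inhibitor of most secreted metalloproteinases. It was scarce and, as no control or CoCl2 library reached the count minimum scaled to library size, was tested only because of its OD libraries. There were 4, 3 and 8 reads in controls, 11, 7 and 10 with CoCl2 and 17, 25 and 13 with OD. In CPM these were 0.215, 0.147 and 0.449, then 0.684, 0.542 and 0.524, then 0.772, 1.11 and 0.692. In these TMM-scaled values the groups did not overlap, but the gaps were narrow. They ran from 0.449 to 0.524 between control and CoCl2 and from 0.684 to 0.692 between CoCl2 and OD. By library size alone, Control replicate 3 (0.500 CPM) lay above CoCl2 replicates 2 (0.430) and 3 (0.413). OD gave a log2 fold change of 1.69 ± 0.40 (SE; edgeR, adjusted p = 0.000199). With CoCl2 it was 1.12 ± 0.46 (edgeR, adjusted p = 0.0232). The CoCl2 call was lost in several alternatives: without Control replicate 1 (1.00, adjusted p = 0.0718), without Control replicate 2 (0.80, adjusted p = 0.137), without CoCl2 replicate 1 (1.00, adjusted p = 0.0828), with library size alone (0.62, adjusted p = 0.208) and without a count filter (1.06, adjusted p = 0.0652). DESeq2 gave 1.15 (adjusted p = 0.113) on 9 libraries. Without Control replicate 3 it stayed called, at 1.65 (edgeR, adjusted p = 0.00651), the lowest adjusted p of the alternatives run, which reached up to 0.208. Between CoCl2 and OD the difference of -0.57 had a 95% interval from -1.26 to 0.12 (edgeR, adjusted p = 0.126).

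Summed over the 3 genes, the TIMP level was 346 to 357 CPM in controls, 517 to 540 with CoCl2 and 549 to 562 with OD. On the log2 scale the sum was 0.59 above control with CoCl2 and 0.65 with OD (p = 0.1 each, two-sided exact permutation test, the smallest possible). With library size alone the CoCl2 difference was only 0.080. TIMP3 made up 85.7% ± 0.33 of the sum in controls (SD, n = 3), 91.4% ± 0.41 with CoCl2 and 76.7% ± 0.41 with OD. TIMP2 made up 14.2% ± 0.29, 8.53% ± 0.41 and 23.1% ± 0.37. Within the sum, the share of TIMP2 was thus lowest with CoCl2 and highest with OD.

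Compared directly, CoCl2 and OD gave different values for most of these genes. Over all tested genes 41.3% were called between CoCl2 and OD, 17.5% higher and 23.8% lower with CoCl2. Of the 9 members 4 were called, ANXA2 higher and PLAU, PLAT and TIMP2 lower with CoCl2, which is near the share of all genes. By adjusted p alone 8 of 9 passed, TIMP1 being the exception, against 83.5% of all genes, and for all 9 the libraries did not overlap, against 83.8%. SERPINE2 was higher with CoCl2 than with OD by 0.58 ± 0.09 (SE; edgeR, adjusted p = 1.14e-07), PLAUR by 0.29 ± 0.09 (edgeR, adjusted p = 0.00277) and TIMP3 by 0.18 ± 0.04 (edgeR, adjusted p = 2.17e-05). The last 3 values depended on scaling. With library size alone, which moved the median of all genes from -0.054 to -0.60, PLAUR was at -0.25, TIMP3 at -0.36 and SERPINE2 at 0.03. Relative to that median they were still at 0.34, 0.23 and 0.63.

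**Figure D4:**
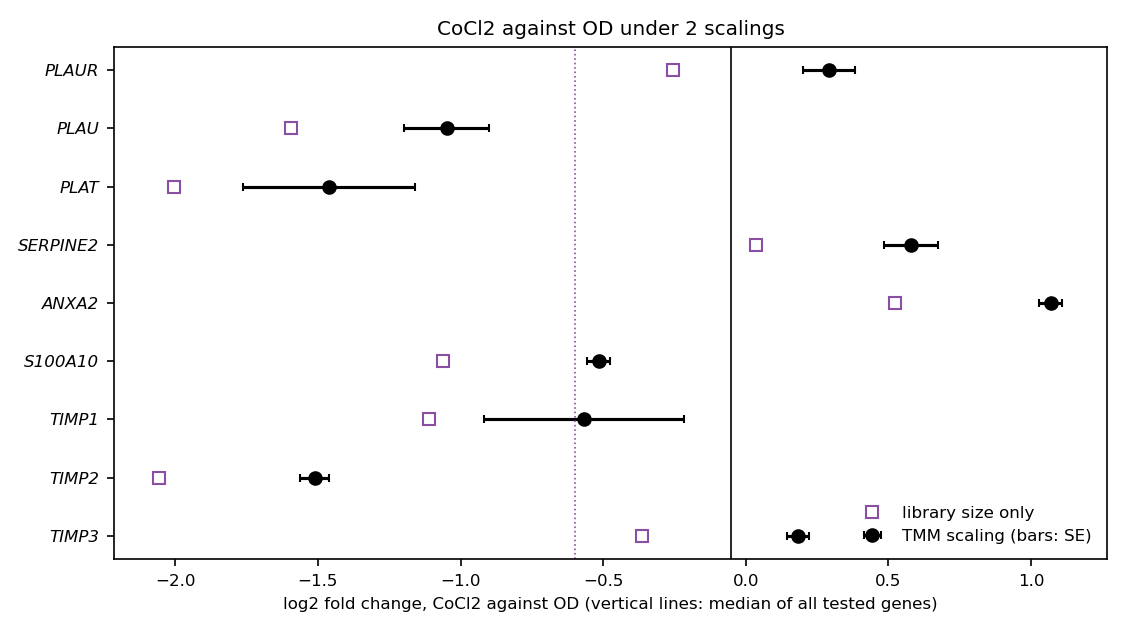
Log2 fold change of CoCl2 against OD for the 9 tested genes with TMM scaling (black points, bars are SE) and with library size alone (open squares). Vertical lines mark the median over all tested genes under each scaling, -0.054 and -0.60. PLAUR and TIMP3 change sign between the scalings, while all 9 genes keep their side of the respective median.

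To compare different genes, levels are given here as CPM per kilobase of exon. The length is that of the merged exons of all annotated transcripts, 11574 bases for ANXA2 and 1012 for S100A10. It can exceed the length of the RNA made, which lowers the value, so the order between genes depends on the annotation. Before division by length, ANXA2 (1134 CPM) stood above S100A10 (717 CPM) in controls. In controls the order from the top was S100A10 (709), ANXA2 (98.0), TIMP3 (65.9) and TIMP2 (8.07). The rest were under 1 CPM per kilobase: PLAU (0.542), PLAUR (0.484), PLAT (0.260), TIMP1 (0.187), SERPINE2 (0.183) and SERPINB5 (0.00479). In this order PLAU and PLAUR overlapped over libraries, as did PLAT and TIMP1, and TIMP1 and SERPINE2. With CoCl2 the first 4 kept their order, at 382, 172, 105 and 7.28 CPM per kilobase. PLAUR (3.50) and SERPINE2 (1.62) came next, then PLAU (1.03), TIMP1 (0.403), SERPINB5 (0.214) and PLAT (0.0739), and no neighbours overlapped. With OD, TIMP3 (92.8) stood above ANXA2 (81.9), and PLAU (2.17) was between PLAUR (2.85) and SERPINE2 (1.08). PLAU and PLAUR thus started at overlapping levels per kilobase in controls and were apart in both treated groups.

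The genes around this system were examined in lists, which include the members that belong to them. For comparison, the call rule was met by 43.2% of all tested genes under CoCl2 (19.9% up, 23.4% down). Under OD it was met by 13.3% (9.09% up, 4.16% down). Whether any list departs from these shares was not tested. Of 10 genes for plasminogen, its activators and its binding proteins, 8 were tested. With CoCl2, 1 was called higher and 3 lower (median log2 fold change -0.60, against -0.049 over all genes), and with OD 1 higher and none lower (-0.32, against -0.010 over all genes). PLG, plasminogen itself, had no count in any library, and neither had KLKB1. ENO1, a glycolytic enzyme that also binds plasminogen at the surface, rose by 1.17 under CoCl2 on the log2 scale and was at 0.70 under OD. The plasminogen receptor PLGRKT was at -1.18 and -0.28, and F12, coagulation factor XII, at -1.25 and -0.55.

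Of 16 genes for uPAR and its known partners 14 were tested, and 3 were called higher and 2 lower with CoCl2 (median 0.22), 4 higher and 1 lower with OD (median 0.56). ITGA5, the fibronectin receptor subunit, rose by 1.27 with CoCl2 and 1.75 with OD on the log2 scale, and ITGB6 by 1.54 and 1.68. MRC2, the collagen-binding receptor that associates with uPAR, had log2 fold changes of -2.42 and -1.44. LRP1, which clears uPA with its inhibitors from the surface, rose by 1.09 with OD and was at -0.50 with CoCl2. EGFR fell by 1.52 with CoCl2 and was at 0.65 with OD. Vitronectin (VTN), a ligand of uPAR in the matrix, was at 0.06 and 0.21, with 549 CPM in controls, and the integrin subunit ITGB1 at 0.64 and 0.28.

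Of 20 serpins and other serine protease inhibitors, 17 were tested. With CoCl2, 5 were called higher and 5 lower (median 0.11), and with OD 4 higher and none lower (median 0.43). SERPINB2 (PAI-2) was not tested, with 0 to 2 reads per control library, 3 to 9 with CoCl2 and 0 to 3 with OD. Its pooled ratio of CoCl2 to control was 10.0, with an exact 95% interval from 2.38 to 89.7 that covers counting error only. SERPINB8 rose by 2.82 with CoCl2 and 1.52 with OD. SPINT2, an inhibitor of membrane serine proteases, rose by 1.12 with CoCl2 and was at 0.43 with OD. SERPINB1, SERPINB6, SERPINB9 and SERPINA5 fell with CoCl2, to log2 fold changes of -1.61, -1.04, -1.73 and -1.37. With OD they were at 0.47, 0.77, 0.53 and -0.35, all under the threshold on size.

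Metalloproteinases, the class of proteases that the TIMPs act on, were listed in the same way. Whether the TIMPs inhibit the product of each listed gene was not examined. Of 23 matrix metalloproteinases 13 were tested, with 4 called higher and 3 lower with CoCl2 (median 0.21) and 2 higher and none lower with OD (median 0.04). MMP13, a collagenase, had no read in controls, 53 to 77 reads per library with CoCl2 and 0 to 2 with OD. Against a floor of 3 counts over the control group it was at least 76.4-fold higher with CoCl2. MMP3 had 2 reads in each control library, 9 to 18 with CoCl2 and 1 to 3 with OD, and was called higher with CoCl2. Both MMP13 and MMP3 passed the count filter only through the CoCl2 libraries, where they were highest, so the count of higher calls includes genes that the filter favoured. The membrane-type MMP14 rose by 1.24 with OD and was at 0.21 with CoCl2. MMP11, MMP24 and MMP19 fell with CoCl2, at -2.20, -1.79 and -1.02, and were at 0.31, -0.50 and 0.03 with OD.

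Of 12 ADAM and ADAMTS genes 8 were tested, 2 called higher and 2 lower with CoCl2 (median -0.04) and 2 higher and none lower with OD (median 0.50). The sheddases ADAM9 and ADAM17 rose by 1.59 and 1.41 with CoCl2 and were at 0.05 and 0.61 with OD. ADAM19 and ADAMTS13 fell with CoCl2, at -1.71 and -3.01. ADAMTS9 and ADAMTS15 rose by 1.64 and 3.19 with OD, the latter from 2 to 5 reads in controls to 24 to 40. ADAMTS15 passed the count filter only through these OD libraries, as did MMP17, the other MMP called with OD. All 6 membrane serine proteases were tested, none called higher and 2 lower with CoCl2 (median -0.42), and 2 higher and none lower with OD (median 0.82). Hepsin (HPN) fell by 1.59 with CoCl2 and rose by 1.78 with OD, and TMPRSS4 fell by 1.23 with CoCl2 and was at 0.86 with OD. TMPRSS6 rose by 1.10 with OD. The 5 metalloproteinase inhibitors, the TIMPs among them, had 1 called higher with CoCl2 and 2 with OD (medians 0.68 and 0.74), and none lower. With library size alone the CoCl2 calls of ENO1 (0.66), ITGA5 (0.76), SPINT2 (0.61) and ADAM17 (0.90) were lost, and with DESeq2's size factors those of SERPINB6 (-0.99) and MMP19 (-0.97). No call of a list gene changed sign under the 3 other scalings. The list medians with CoCl2 did depend on scaling. With library size alone they turned negative for the uPAR partners (-0.28), the serine protease inhibitors (-0.39) and the matrix metalloproteinases (-0.30). That of the metalloproteinase inhibitors stayed positive (0.17). The median over all genes was then -0.55.

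The genes most like PLAUR over the 9 libraries were taken as those with the smallest root mean square difference in log2 CPM, each centred on its control mean. They were CXCR4 (0.20), PIK3CD (0.20), TRIM36 (0.21), SERPINE2 (0.22) and KLF4 (0.23). Their log2 fold changes with CoCl2 were 3.01, 3.16, 2.91, 3.14 and 2.71, and with OD 2.62, 2.55, 2.82, 2.56 and 2.28. CXCR4, the receptor of CXCL12, was at 0.884 CPM in controls, 7.23 with CoCl2 and 5.40 with OD. SERPINE2 was the 1 other member among these 5 genes.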

How the data were processed

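Libraries of messenger RNA (stranded kit, single-end reads) came from 9 cultures of uCaco-2, 3 per group. Per the labels and the study's methods, the authors trimmed reads with cutadapt 2.10, checked them with FastQC 0.11.9 and aligned them with STAR 2.7.5b to GRCh38.p13. The deposited values are raw counts per gene symbol; the counting tool, its strand setting and its treatment of multimapped reads are not given in the sources used here. No column was left unused.

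Groups were taken from the labels. Genes passing filterByExpr (minimum count 10; 15944 of 60591) were scaled by TMM and tested in 1 fit over 9 libraries with the quasi-likelihood test of edgeR 4.0.16 (R 4.3.3), with Benjamini-Hochberg adjustment over all tested genes. A gene was called at adjusted p under 0.05 and log2 fold change above 1 in size. The SE is the log2 fold change divided by the square root of its F statistic. CPM are counts over the TMM-scaled library size, and lengths are merged exons of GENCODE 44. Overlap of gene levels between groups was judged on these TMM-scaled CPM. Ratios within libraries were compared by two-sided exact permutation tests. The fit was tested on simulated data. Alternatives were other scalings, count filters, DESeq2 1.42.0, fits on 6 libraries, other call rules, a replicate block and leaving out each library.

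The members, lists and motifs were chosen with earlier results of these data known. All members are named. Genes of a list are named if called against control, up to the 4 most abundant, the 2 largest rises and the 2 largest falls, and SERPINB2, PLG, VTN, ITGA5 and ITGB1 whatever their values; 1 further gene of the lists is not reported here; KLKB1, MMP17 and the marker genes named were added after their values were seen. The list of metalloproteinase inhibitors had no further called gene.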

Additional observations from a re-analysis of the deposited data

How the results depend on the processing

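The number of members called was 4 with CoCl2, 5 with OD and 4 between CoCl2 and OD, and stayed within 1.5 times that number in 55 of 60 alternatives. By adjusted p alone it was 9, 8 and 8. With at least 10 counts in every library it was 2 with CoCl2, where PLAUR and SERPINE2 remained. With edgeR's test against a log2 fold change of 1 it was 2 between CoCl2 and OD. Leaving out 1 library gave 3 to 5 with CoCl2, 5 with OD and 3 to 5 between CoCl2 and OD. Some of these fits also tested SERPINB5. PLAUR (-0.25) and TIMP3 (-0.36) turned sign between CoCl2 and OD with library size alone. Over all alternatives, 463 of 482 single values kept direction and call, 11 lost the call, 6 gained it and 2 turned; library size alone also made S100A10 called with CoCl2 (-1.40) and S100A10 (-1.06) and TIMP1 (-1.11) called between CoCl2 and OD. That scaling called 23.9% of changed genes higher with CoCl2, against 46.0% with TMM, and 18.3% against 42.4% between CoCl2 and OD. The within-library measures kept their direction in all 63 alternatives.

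Same-numbered libraries did not deviate together (correlations of -0.0049 to 0.0376), so the numbers were not taken as pairs. With the replicate block, the members called were 4, 5 and 4. Over all genes, calls numbered 6891 with CoCl2, 2113 with OD and 6580 between CoCl2 and OD, and 13260, 10466 and 13311 by adjusted p alone. For OD the count was 1134 with at least 10 counts in every library and 965 against a log2 fold change of 1. Counts for the lists were rerun as well, a choice made after the data were seen, and 132 of 147 stayed within 1.5 times. Depth limits the values of genes with few reads, such as SERPINB5, TIMP1 and SERPINB2.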
